A study of Mus musculus with 12 samples.

Results

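The genes described here are 6 WNT ligands (Wnt2, Wnt4, Wnt5a, Wnt7a, Wnt7b and Wnt11) and 4 Frizzled receptors (Fzd1, Fzd2, Fzd6 and Fzd7) of the mouse uterus. The genes were chosen with earlier results of these data known, so their counts beside all probe sets are descriptions and no independent evidence. Their probe sets were taken by name, as every one annotated to 1 of these symbols and to no other gene. This gave 10 of 19938 genes, and 11 of the 23410 probe sets that carried a symbol and were tested. Each gene is represented by its brightest probe set, and Wnt4 was the only one of them with a second.

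WNT proteins are lipid-modified ligands that act over short distances. They bind the extracellular cysteine-rich domain of Frizzled receptors, which span the membrane several times, and co-receptors such as Lrp5, Lrp6, Ryk and Ror proteins help to decide the response. In the beta-catenin route binding keeps beta-catenin from being degraded, so that it acts with TCF and LEF factors on target genes, while other routes act on planar cell polarity, the cytoskeleton and calcium. In the uterus WNT ligands are made in both the epithelium and the stroma. Wnt7a is known as a ligand of the luminal epithelium, Wnt5a as a ligand of the stroma, and Wnt4 for its part in the decidual response.

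Affymetrix Mouse Gene 1.0 ST arrays measured RNA in 12 samples, 3 arrays for each layer (epithelial or stromal) and treatment (vehicle or E2). The cells came from uteri of CD-1 mice on day 4 of pseudopregnancy. Epithelial sheets on inserts coated with matrigel shared medium with stromal cells on cover slips. Each co-culture was kept overnight in 1% charcoal-stripped serum and then given 10 nM estradiol (E2) or its vehicle, 0.01% ethanol, for 2 days, after which each layer was harvested alone. All groups carried the same share of stripped serum, while an ethanol content is given for the vehicle cultures alone. No group was of fresh tissue, and layer and growth surface cannot be told apart. Whether replicates were separate mice or separate cultures is not in the labels, so each p reflects the spread among these arrays alone, which may be technical.

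Values are log2 signals of robust multi-array averaging (RMA). A level is compared between groups within a gene, never between genes, because probe sets differ in brightness. The array medians over the tested probe sets ran from 7.38 to 7.43. The epithelial arrays varied more, with a median SD within a group of 0.185 under vehicle and 0.158 under E2, against 0.0946 and 0.0804 in stroma. The layers were checked against markers. The epithelial arrays read from 9.23 to 11.20 for Epcam and from 11.89 to 12.77 for Krt8, where the stromal arrays read from 5.21 to 6.04 and from 7.54 to 8.11. Epithelial arrays also held stromal signal, since Pdgfra lay between 9.82 and 11.76 under vehicle and between 11.71 and 11.94 under E2, beside 11.62 to 12.27 in the stromal arrays. The mesothelial markers Msln and Upk3b lay between 9.76 and 11.86 in the epithelial arrays and between 6.93 and 7.35 in the stromal arrays. In such bulk samples, fewer cells of a type and less RNA per cell cannot be told apart.

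RefSeq gave promoter sequences (build GRCm38.p6) for 6 of the 10 genes, at 7 start sites. The 250 bases upstream of 3 of them are shown because these genes stand for the 3 patterns described below: Wnt7a was higher in the epithelial layer, Fzd1 fell in stroma under E2, and Fzd7 passed no test. Capitals mark matches on either strand to the motifs that were searched. The GC box bound by Sp1 was searched as GGGCGG, and adjoining boxes may overlap. The TATA box, near which transcription often starts, was searched as TATAAA. The motif of TCF and LEF factors was searched as CTTTGA. The half-site of the estrogen receptor was searched as GGTCA.
Wnt7a, chr6:91411354-91411603, minus strand: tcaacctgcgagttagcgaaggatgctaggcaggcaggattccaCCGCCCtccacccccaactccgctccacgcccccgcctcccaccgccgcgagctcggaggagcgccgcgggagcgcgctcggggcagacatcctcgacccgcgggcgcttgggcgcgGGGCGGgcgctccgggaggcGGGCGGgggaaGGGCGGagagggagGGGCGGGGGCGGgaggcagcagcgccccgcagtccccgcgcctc
Fzd1, chr5:4758217-4758466, minus strand: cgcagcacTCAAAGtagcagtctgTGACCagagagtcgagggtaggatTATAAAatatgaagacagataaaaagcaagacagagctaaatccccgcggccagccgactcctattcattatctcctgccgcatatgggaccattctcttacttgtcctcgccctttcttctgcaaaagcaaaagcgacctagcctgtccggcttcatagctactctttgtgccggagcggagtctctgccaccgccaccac
Fzd7, chr1:59481897-59482146, plus strand: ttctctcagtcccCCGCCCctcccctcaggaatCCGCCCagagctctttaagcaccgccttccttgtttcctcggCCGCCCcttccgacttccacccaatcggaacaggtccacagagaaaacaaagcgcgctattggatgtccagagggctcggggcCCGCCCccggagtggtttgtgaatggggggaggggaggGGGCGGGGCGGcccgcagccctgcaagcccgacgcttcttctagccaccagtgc
The Wnt7a and Fzd7 windows each held 6 GC boxes and none of the other motifs. The Fzd1 window held no GC box but 1 match each to the TATA box, the TCF/LEF motif and the half-site. GC made up 77.6% of the Wnt7a window, 65.2% of the Fzd7 window and 51.2% of the Fzd1 window, against a median of 52.4% over 32851 promoters of the same length. The Wnt4 window held 8 GC boxes at 85.2% GC, and the first of the 2 Wnt11 start sites held 4 GC boxes, 1 TATA box and 1 TCF/LEF match. Of all promoters, 32.7% held a GC box, 12.4% a TATA box, 13.8% a TCF/LEF match and 35.2% a half-site. The full estrogen response element, GGTCANNNTGACC, was in 0.0639% of promoters and the AP-1 motif, TGANTCA, in 6.75%, and neither was in any of these 7 windows. A match describes letters in the window and is no measured binding.

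Without hormone, the epithelial layer carried more Wnt7a, Wnt7b, Fzd6 and Wnt11 than the stromal layer, and the stromal layer carried more Wnt5a. Wnt4 was higher in epithelium by its brighter probe set, which is counted here. Its second probe set did not pass (0.06 ± 0.16, adjusted p = 0.812, limma). The comparison asks which layer holds each ligand and receptor before E2 is given. Of the 10 genes, 6 passed limma's test across all probe sets (Benjamini-Hochberg adjusted p under 0.05), 5 higher in epithelium and 1 lower. Over all probe sets tested, 21.4% passed, 7.27% higher and 14.1% lower. The median difference of the 10 genes was 0.43, against 0.02 over all probe sets. Differences below are log2 values with the standard error after ±, and n is 3 arrays in each group.

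Wnt7a is an epithelial ligand that guides the development of the female reproductive tract. It read 10.12, 11.23 and 8.75 in the epithelial vehicle arrays, 7.91, 8.44 and 8.71 under E2, 6.60, 6.45 and 6.48 in the stromal vehicle arrays and 6.62, 6.79 and 6.66 under E2, each in the order of replicates 1 to 3. The epithelial vehicle arrays spread widely, and the lowest of them still lay more than 2 log2 units above the highest stromal vehicle array. The group means were 10.03 ± 1.24 (SD, n = 3) and 6.51 ± 0.08 (SD, n = 3), a difference of 3.52 ± 0.46 (adjusted p = 0.000333, limma).

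Wnt7b, its close relative, read 9.62, 10.26 and 8.45 in epithelial vehicle arrays, 8.02, 8.12 and 8.36 in epithelial E2 arrays, 7.10, 6.83 and 7.11 in stromal vehicle arrays and 7.28, 7.14 and 6.95 in stromal E2 arrays. All 6 epithelial arrays lay above all 6 stromal arrays. Under vehicle the layers differed by 2.43 ± 0.34 (adjusted p = 0.000512, limma), a 5.40-fold ratio of signals.

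Fzd6, a receptor best known from planar polarity, had the same shape. Its epithelial vehicle arrays read 9.13, 10.36 and 8.27, its epithelial E2 arrays 7.91, 8.04 and 7.97, its stromal vehicle arrays 6.39, 6.12 and 6.29 and its stromal E2 arrays 6.37, 6.39 and 6.33. Replicate 2 of the epithelial vehicle group was the highest array, and replicate 3 the lowest of that group, for Wnt7a, Wnt7b and Fzd6 alike. The difference between the layers was 2.99 ± 0.37 (adjusted p = 0.000255, limma). In stroma the means of Wnt7a and Fzd6 lay near the low end of the scale, above 95.5% and 92.8% of the 1035 olfactory receptor probe sets under vehicle. The stromal vehicle mean of Wnt7b, 7.01, lay above 98.3% of them. Whether these values lay above background was not tested. The signal ratios of 11.5-fold for Wnt7a, 5.40-fold for Wnt7b and 7.93-fold for Fzd6 are therefore no measure of the ratio of transcripts.

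**Figure D1:**
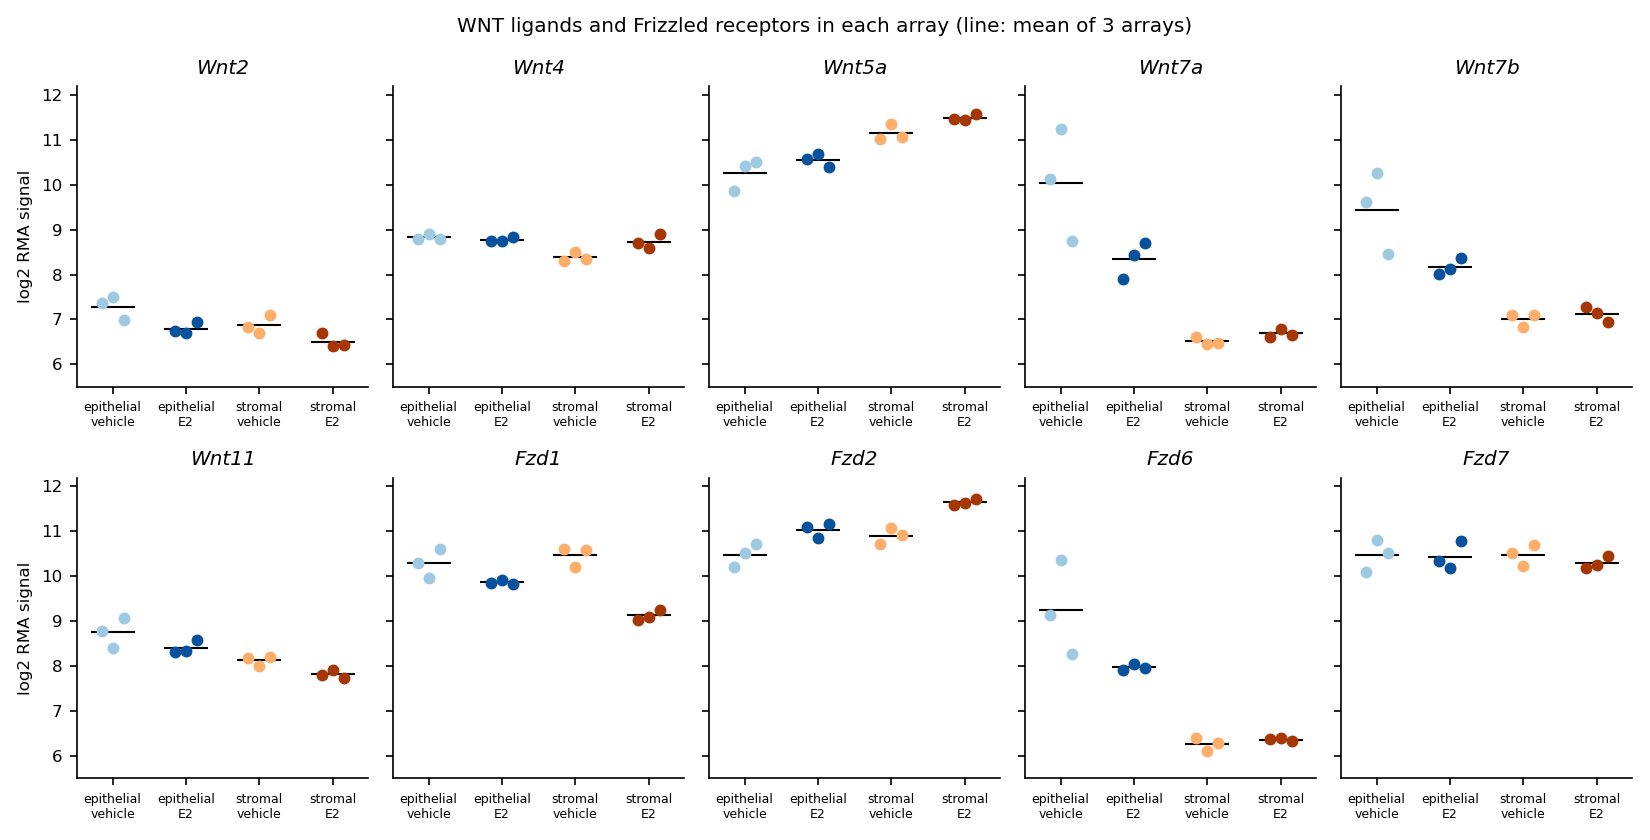
Log2 RMA signal of the 10 genes (vertical axis) in each of the 12 arrays (points), by group along the horizontal axis, with a line at the mean of 3 arrays. Wnt7a, Wnt7b and Fzd6 lie higher and spread more in the epithelial vehicle arrays, from 8.27 to 11.23, than in the stromal arrays, all under 7.30, and Fzd1 is lowest in the stromal E2 arrays, from 9.04 to 9.26.

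Wnt11, a ligand of the beta-catenin-independent routes, was higher in epithelium by less. It read 8.79, 8.41 and 9.08 in the epithelial vehicle arrays and 8.18, 8.0 and 8.20 in the stromal vehicle arrays. With E2 it read 8.31, 8.33 and 8.57 in epithelium and 7.79, 7.90 and 7.74 in stroma. Neither pair of layers overlapped. The vehicle difference was 0.63 ± 0.15 (adjusted p = 0.0109, limma), and the adjusted p reached 0.0493 with 1 array left out.

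Wnt4, the ligand tied to decidualization, gave different answers with its probe sets. The brighter one read 8.79, 8.90 and 8.80 in epithelial vehicle arrays, 8.75, 8.74 and 8.85 in epithelial E2 arrays, 8.29, 8.50 and 8.36 in stromal vehicle arrays and 8.71, 8.59 and 8.90 in stromal E2 arrays. Its stromal vehicle group was thus the low one, and each neighbouring pair among the other 3 groups overlapped. By this probe set epithelium exceeded stroma by 0.45 ± 0.10 under vehicle (adjusted p = 0.00699, limma). The second probe set read 7.75, 8.18 and 7.83 in epithelial vehicle arrays and 7.71, 8.08 and 7.77 in stromal vehicle arrays. These overlapped, with a difference of 0.06 ± 0.16 (adjusted p = 0.812, limma).

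Wnt5a, a ligand of the noncanonical routes made by the stroma, ran the other way. It read 9.87, 10.42 and 10.51 in epithelial vehicle arrays, 10.57, 10.69 and 10.39 in epithelial E2 arrays, 11.02, 11.36 and 11.06 in stromal vehicle arrays and 11.47, 11.44 and 11.58 in stromal E2 arrays. All 6 stromal arrays lay above all 6 epithelial arrays. Stroma exceeded epithelium under vehicle, the epithelial minus stromal difference being -0.88 ± 0.16 (adjusted p = 0.00271, limma). The epithelial vehicle array with the highest Wnt5a, replicate 3, also had the highest mean of 15 stromal markers in its group, 10.56 against 10.00 and 9.73 in replicates 1 and 2. The order did not carry through the group, since Wnt5a was lowest in replicate 1 and the markers in replicate 2. The part of stromal cells in the epithelial signal was not tested.

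The other 4 genes did not pass between the layers under vehicle. Fzd2, a receptor that binds Wnt5a among others, read 10.21, 10.51 and 10.73 in epithelial and 10.73, 11.07 and 10.92 in stromal vehicle arrays. The groups touched without overlapping, and the difference of -0.42 ± 0.14 had an adjusted p of 0.0514 (limma). It passed once the replicate number was a block (adjusted p = 0.0378) or treatment and number together were (adjusted p = 0.0358). Fzd1, which can act in the beta-catenin route, read 10.30, 9.96 and 10.61 in epithelial and 10.61, 10.21 and 10.58 in stromal vehicle arrays. These overlapped and differed by -0.18 ± 0.16 (adjusted p = 0.453, limma).

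Fzd7, a receptor of stem and progenitor cells in several epithelia, read 10.09, 10.80 and 10.51 in epithelial vehicle arrays, 10.34, 10.18 and 10.78 in epithelial E2 arrays, 10.51, 10.22 and 10.70 in stromal vehicle arrays and 10.19, 10.25 and 10.45 in stromal E2 arrays. Every pair of neighbouring groups overlapped. The layer difference under vehicle was -0.01 with a 95% interval from -0.45 to 0.43 (adjusted p = 0.979, limma). That interval bounds the difference but does not show equal levels. Wnt2, a ligand of the beta-catenin route found in the uterine stroma and other mesenchyme, read 7.37, 7.49 and 6.98 in epithelial and 6.84, 6.69 and 7.10 in stromal vehicle arrays. These are low values, above 98.1% and 97.8% of olfactory receptor probe sets as group means, and they overlapped. The difference was 0.41 ± 0.15 (adjusted p = 0.0799, limma).

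All 6 vehicle calls also passed in each of the 6 fits that left out 1 vehicle array. That of Wnt11 was lost when only the vehicle arrays were fitted (adjusted p = 0.0536), and that of Wnt4 when its probe sets were averaged (0.25, adjusted p = 0.174). Fzd2, by contrast, passed with array medians set equal (adjusted p = 0.0391), with dim probe sets left out (0.0434), with probe sets of a gene averaged (0.0457) and with array weights (0.0166). Under vehicle, 7 of the 10 genes did not overlap between the layers, 5 higher and 2 lower in epithelium, where 36.0% of all probe sets did not overlap (14.6% higher and 21.3% lower).

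With E2, the layers again differed in Wnt7a, Fzd6, Wnt11 and Wnt5a, and both Fzd1 and Fzd2 passed too. Here 6 of the 10 genes passed limma's test, 4 higher and 2 lower in epithelium, against 13.6% of all probe sets (4.43% higher and 9.18% lower). Wnt7a was higher in epithelium by 1.67 ± 0.46 (adjusted p = 0.0324, limma), and Fzd6 by 1.61 ± 0.37 (adjusted p = 0.0140, limma). Wnt7b differed by 1.05 ± 0.34 and did not pass (adjusted p = 0.0644, limma), although its groups did not overlap. Wnt11 was higher in epithelium by 0.59 ± 0.15 (adjusted p = 0.0213, limma).

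Fzd1 under E2 read 9.85, 9.91 and 9.83 in epithelium and 9.04, 9.10 and 9.26 in stroma. Its layers, which overlapped under vehicle, were apart by 0.73 ± 0.16 (adjusted p = 0.00893, limma). Fzd2 read 11.09, 10.85 and 11.17 in epithelium and 11.59, 11.64 and 11.73 in stroma, so the stromal arrays were the higher ones. The difference was -0.62 ± 0.14 (adjusted p = 0.0124, limma). Wnt5a differed by -0.95 ± 0.16 (adjusted p = 0.00243, limma).

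For Wnt4 the probe sets again disagreed. The brighter one differed by 0.04 ± 0.10 between the layers under E2 (adjusted p = 0.809, limma). The second read 7.87, 7.64 and 7.96 in epithelial and 8.20, 8.29 and 8.71 in stromal E2 arrays, with a difference of -0.58 ± 0.16 that passed (adjusted p = 0.0382, limma). Wnt2 read 6.74, 6.71 and 6.95 in epithelial and 6.70, 6.40 and 6.43 in stromal E2 arrays, and its difference of 0.29 ± 0.15 did not pass (adjusted p = 0.245, limma). Fzd7 differed by 0.14 ± 0.20 (adjusted p = 0.701, limma).

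Of the E2 calls between layers, those of Wnt5a, Fzd1 and Fzd6 passed in all 6 fits that left out 1 E2 array. Wnt7a lost its call in all but the fit without epithelial replicate 1, with an adjusted p of up to 0.109. Wnt11 lost it without epithelial replicate 3 or stromal replicate 1 or 3 (up to 0.0794), and Fzd2 without epithelial replicate 2 or stromal replicate 3 (up to 0.0535). The second Wnt4 probe set lost its call in 4 of the 6 fits, those without epithelial or stromal replicate 2, epithelial replicate 1 or stromal replicate 3, with an adjusted p of up to 0.153. Wnt7a also lost its call with every probe set of the table tested (adjusted p = 0.0510) and with epithelial E2 replicates 1 and 2 averaged (0.0585). The second Wnt4 probe set lost it under the same settings (0.0568 and 0.0929) and with cyclic loess (0.0707). Wnt7b passed when only the E2 arrays were fitted (adjusted p = 0.00170) and with array weights (4.93e-05). Under E2, 8 of the 10 genes did not overlap between the layers, 6 higher and 2 lower, against 38.9% of all probe sets (17.6% higher and 21.3% lower).

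**Figure D2:**
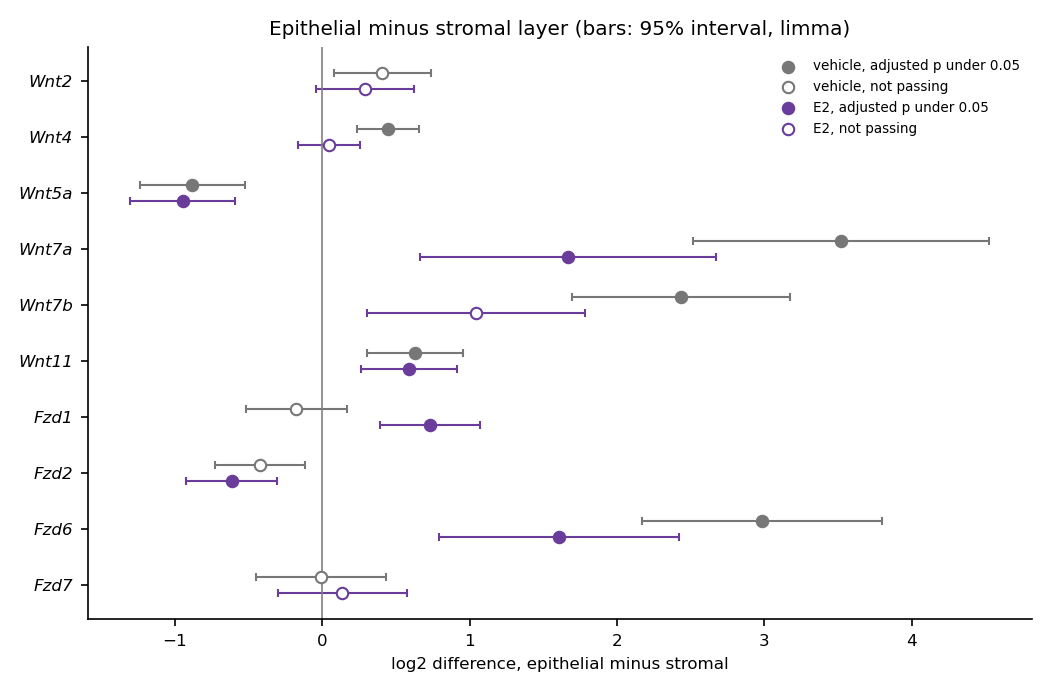
Log2 difference of the epithelial minus the stromal layer (horizontal axis) for the 10 genes (vertical axis) under vehicle (grey) and E2 (purple), with limma's 95% intervals; filled points passed the test and open points did not. Wnt7a, Fzd6 and Wnt7b stand far to the right under vehicle, at 3.52, 2.99 and 2.43, and nearer to 0 under E2, at 1.67, 1.61 and 1.05.

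In the epithelial layer, no member passed the test for an effect of E2. The largest differences were the lower signals of Wnt7a, Wnt7b and Fzd6 and the higher signal of Fzd2. By limma 0 of the 10 genes had an adjusted p under 0.05, while 7 had an unadjusted p under 0.05, 1 higher and 6 lower with E2. Over all probe sets 2.9% passed after adjustment (1.77% higher and 1.12% lower), and 16.2% had an unadjusted p under 0.05 (7.68% higher and 8.51% lower). The groups did not overlap for 6 of the 10 genes, 1 higher and 5 lower, against 15.0% of all probe sets (6.95% higher and 8.04% lower). The median difference of the 10 genes was -0.39, against 0.03 over all probe sets.

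Among the ligands, Wnt7a differed by -1.68 with a 95% interval from -2.68 to -0.68 (adjusted p = 0.0782, limma). All 3 E2 arrays lay below all 3 vehicle arrays, by as little as 8.71 against 8.75. Wnt7b differed by -1.27 ± 0.34 (adjusted p = 0.0708, limma), also without overlap. Wnt2 differed by -0.48 ± 0.15 (adjusted p = 0.123, limma) and Wnt11 by -0.35 ± 0.15 (adjusted p = 0.262, limma). The Wnt11 arrays overlapped and those of Wnt2 did not. Wnt5a differed by 0.28 ± 0.16 (adjusted p = 0.443, limma) and Wnt4 by -0.05 ± 0.10 (adjusted p = 0.880, limma), both with overlap.

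Among the receptors, Fzd6 differed by -1.28 ± 0.37 (adjusted p = 0.0971, limma) and Fzd2 by 0.55 ± 0.14 (adjusted p = 0.0598, limma), and neither overlapped. Fzd1 differed by -0.43 ± 0.16 (adjusted p = 0.189, limma), its 3 E2 arrays all below its vehicle arrays. Fzd7 differed by -0.03 ± 0.20 (adjusted p = 0.963, limma).

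Which genes passed in epithelium turned on single vehicle arrays. Without vehicle replicate 3 there were 5 calls, namely Wnt7a at -2.32 (adjusted p = 0.00126), Wnt7b at -1.77, Fzd6 at -1.77, Wnt2 at -0.63 and Fzd2 at 0.68. Over all 23410 probe sets that fit gave 724 higher and 910 lower calls, in place of 415 and 263. Without vehicle replicate 2 the calls were Fzd1 at -0.59 and Wnt11 at -0.53, and Wnt7a was at -1.08. All probe sets then gave 394 higher and 268 lower calls. The fits without any other epithelial array called 0 of the 10 genes.

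Epithelial marker signals moved with these values. The mean log2 signal of 14 measured epithelial markers was 10.52, 11.06 and 9.51 in the vehicle arrays and 9.41, 9.62 and 9.71 in the E2 arrays. Replicate 3 was thus the lowest vehicle array for the markers as it was for Wnt7a, Wnt7b and Fzd6, and replicate 2 the highest. Of the 14 markers, 13 were measured lower with E2, 1 passed, and the median difference was -0.71. The stromal marker mean ran the other way, at 10.00, 9.73 and 10.56 in vehicle arrays and 10.56, 10.55 and 10.46 in E2 arrays, and the mean of 12 leukocyte markers was 7.85, 7.69 and 7.86 against 8.38, 8.45 and 7.83. The part of cell content in these differences was not tested.

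Relative to the epithelial marker mean of the same array, a measure chosen after the values were seen, the 3 genes were also lower with E2. Wnt7a lay between -0.76 and 0.17 relative to the markers under vehicle and between -1.49 and -1.0 under E2. Wnt7b lay between -1.05 and -0.81 under vehicle and between -1.49 and -1.35 under E2. Fzd6 lay between -1.39 and -0.70 and between -1.75 and -1.49. The groups of these 3 genes did not overlap on this measure, where 0.333% of all probe sets did not overlap with E2 lower and 6.74% with E2 higher. The marker mean was itself lower under E2, at 9.58 against 10.36 under vehicle. Subtracting it moves the E2 values of all probe sets up on average, which makes a lower E2 group rarer. The 3 were also picked for their lower signal with E2, so nothing is read from the missing overlap, and no test was made.

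**Figure D3:**
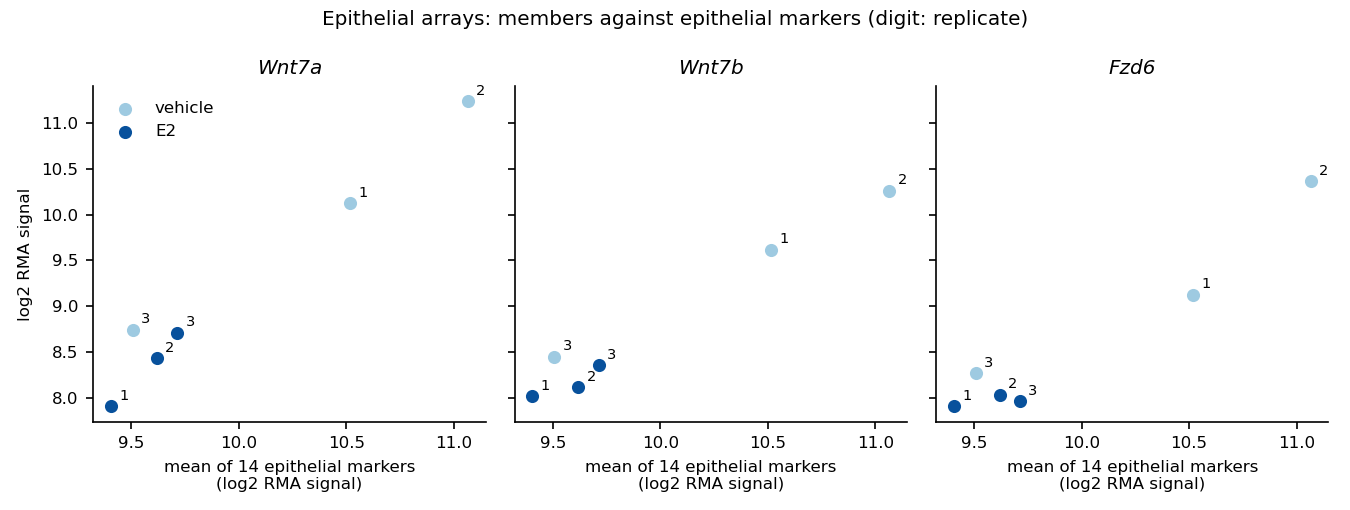
Log2 RMA signal of Wnt7a, Wnt7b and Fzd6 (vertical axis) against the mean log2 signal of 14 epithelial markers (horizontal axis) in the 6 epithelial arrays, vehicle in light blue and E2 in dark blue, with the replicate number beside each point. Vehicle replicate 3, at a marker mean of 9.51, lies among the E2 arrays, which run from 9.41 to 9.71, and replicates 1 and 2 lie apart at 10.52 and 11.06.

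In the stromal layer E2 moved 2 receptors in opposite directions. Fzd1 fell and Fzd2 rose, and no ligand passed. These are 2 of the 10 genes, 1 in each direction, against 3.5% of all probe sets (1.52% higher and 1.98% lower). With an unadjusted p under 0.05 there were 4, Fzd1, Fzd2, Wnt4 and Wnt2, against 12.5% of all probe sets (5.31% higher and 7.16% lower).

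Fzd1 read 10.61, 10.21 and 10.58 under vehicle and 9.04, 9.10 and 9.26 under E2. Its highest E2 array lay almost a full log2 unit below its lowest vehicle array. The means were 10.47 ± 0.22 (SD, n = 3) and 9.13 ± 0.12 (SD, n = 3), and Fzd1 fell by 1.34 on the log2 scale with a standard error of 0.16 (adjusted p = 0.000722, limma), a 2.52-fold ratio. It passed in all 6 fits that left out 1 stromal array, where the difference lay between -1.46 and -1.26.

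Fzd2 read 10.73, 11.07 and 10.92 under vehicle and 11.59, 11.64 and 11.73 under E2, without overlap. It rose by 0.75 ± 0.14 (adjusted p = 0.0119, limma), from 10.90 ± 0.17 (SD, n = 3) to 11.65 ± 0.07 (SD, n = 3), a 1.68-fold ratio. The call was lost without vehicle replicate 1 (adjusted p = 0.0653), E2 replicate 2 (0.0524) or E2 replicate 3 (0.0562), where the difference stayed between 0.66 and 0.83 over the 6 fits.

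The other receptors did not pass. Fzd6 differed by 0.10 ± 0.37 (adjusted p = 0.970, limma), with values at the low end in both groups, and Fzd7 by -0.18 ± 0.20 (adjusted p = 0.883, limma). In the limma fit these standard errors hold the wider spread of the epithelial arrays.

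Among the ligands, Wnt4 came nearest, at 0.35 ± 0.10 with its brighter probe set (adjusted p = 0.0818, limma) and 0.55 ± 0.16 with the second (adjusted p = 0.120, limma). Its stromal groups did not overlap with either probe set. Wnt5a differed by 0.35 ± 0.16 (adjusted p = 0.412, limma) and Wnt7a by 0.18 ± 0.46 (adjusted p = 0.958, limma), in each case with every E2 array above every vehicle array. Wnt11 differed by -0.31 ± 0.15 (adjusted p = 0.427, limma), with every E2 array below, and passed when only the stromal arrays were fitted (adjusted p = 0.0485) and with array weights (0.0133). Wnt2 differed by -0.37 ± 0.15 (adjusted p = 0.319, limma) and Wnt7b by 0.11 ± 0.34 (adjusted p = 0.962, limma), both with overlap. In all, 6 of the 10 genes did not overlap, 4 higher and 2 lower, where 30.5% of all probe sets did not (15.9% higher and 14.6% lower).

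Marker means in the stromal arrays are given beside these results. The epithelial marker mean lay between 6.66 and 6.91 under vehicle and between 7.03 and 7.15 under E2. Of its 14 genes, 11 were measured higher and 3 lower with E2, and 1 passed. The epithelial keratin Krt18 read 8.04 ± 0.68 and 9.40 ± 0.42 (SD, n = 3), whereas the keratin Krt8 read 7.89 ± 0.20 and 7.76 ± 0.21 (SD, n = 3). The stromal marker mean lay between 10.84 and 11.01 under vehicle and between 10.66 and 10.81 under E2, and the leukocyte mean between 8.79 and 8.83 and between 8.58 and 8.72. The smooth muscle mean of 7 genes lay between 11.81 and 11.92 under vehicle and between 12.04 and 12.14 under E2. The part of these shifts in the Fzd1 and Fzd2 results was not tested.

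**Figure D4:**
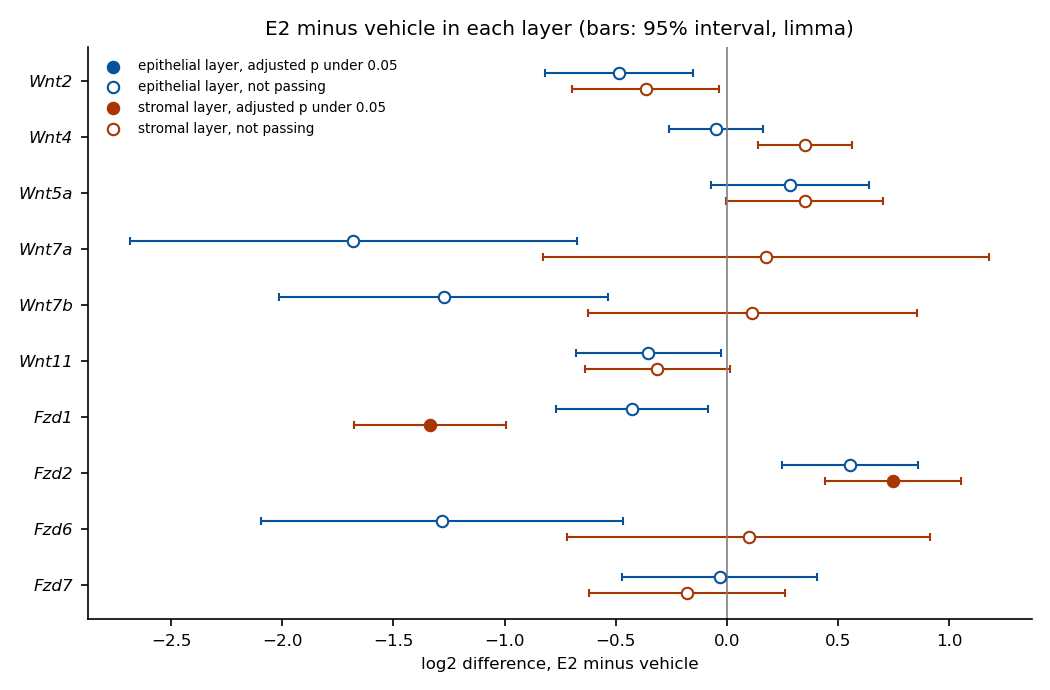
Log2 difference of E2 minus vehicle (horizontal axis) for the 10 genes (vertical axis) in the epithelial (blue) and stromal (orange-brown) layers, with limma's 95% intervals; filled points passed the test and open points did not. Both filled points are stromal, Fzd1 at -1.34 and Fzd2 at 0.75, and the widest intervals are those of Wnt7a, Fzd6 and Wnt7b.

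The difference between the layers in the E2 effect was tested as such. By limma 0 of the 10 genes passed, against 0.91% of all probe sets (0.641% higher and 0.269% lower). With an unadjusted p under 0.05 there were 5, 1 higher and 4 lower in epithelium, against 10.5% of all probe sets (5.96% higher and 4.55% lower). Fzd1 had the smallest adjusted p, its effect being -0.43 in epithelium and -1.34 in stroma, a difference of 0.91 ± 0.22 (adjusted p = 0.0954, limma). The difference for Wnt7a was -1.86 ± 0.65 (adjusted p = 0.281, limma), for Wnt7b -1.39 ± 0.48 (adjusted p = 0.273, limma) and for Fzd6 -1.38 ± 0.53 (adjusted p = 0.339, limma). Wnt4 differed by -0.40 ± 0.14 (adjusted p = 0.267, limma). Without epithelial vehicle replicate 3, Wnt7a, Wnt7b, Fzd1 and Fzd6 passed, at -2.50, -1.88, 1.07 and -1.87. That fit called 725 of all probe sets, in place of 213. For Fzd2, 0.55 in epithelium and 0.75 in stroma, the difference was -0.19 with a 95% interval from -0.63 to 0.24 (adjusted p = 0.942, limma). An effect of E2 on Fzd1 or Fzd2 limited to the stroma was therefore not shown.

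Over the 4 groups the order of the levels differed from gene to gene. Wnt7a and Fzd6 ran from epithelial vehicle through epithelial E2 and stromal E2 to stromal vehicle, and Wnt7b did the same. For Wnt7b and Fzd6 the last 2 of these groups overlapped. Wnt5a ran from stromal E2 through stromal vehicle and epithelial E2 to epithelial vehicle, with overlap between the epithelial groups alone. Fzd2 ran from stromal E2 through epithelial E2 and stromal vehicle to epithelial vehicle, and its middle groups overlapped. Fzd1 began with the vehicle groups of both layers, which overlapped, and went on to epithelial E2 and then stromal E2.

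For each gene called in any comparison, the 3 genes with the most similar pattern among 17124 were named by Pearson's r over the 12 arrays. These are descriptions without a test, because the arrays fall into 4 groups that share a layer or a treatment. Wnt7a was most like Itgb4, an integrin subunit of epithelial hemidesmosomes (r = 0.9957), the channel Trpm6 (0.9939) and the transporter Slc23a4 (0.993). Wnt7b was most like Hoxb4 and the transporter Slc4a11 (both 0.9934), followed by Wnt7a itself (0.9928). Fzd6 was most like the interleukin receptor Il18r1 (0.9967), the laminin chain Lama3 (0.9955) and Tmem184a (0.9953).

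Fzd1, lowest in the stromal E2 arrays, was most like Nfkb2, a subunit of NF-kappaB (r = 0.9678), the WNT-induced secreted protein Ccn4 (0.9527) and Ext1, an enzyme of heparan sulfate synthesis (0.9521). Fzd2 was most like Pla2r1 (0.9787), Fam13c (0.9693) and Trabd2b, a protease that inactivates WNT ligands (0.9684). Wnt5a was most like Prss23 (0.9822), Rab29 (0.9776) and Lztr1 (0.9741). Wnt11 was most like Rcl1 (0.9471), Fgf21 (0.9438) and Timp1 (0.9432), and Wnt4 like Lama5 (0.9093), Myl12b (0.90) and Ddx18 (0.8976).

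The rest of the pathway was read from 9 lists of 96 other measured genes. In the epithelial layer E2 raised 9 of them and lowered 7, which is 16.7% beside the 2.9% of all probe sets, with a median difference of 0.002 for the 96 genes and 0.03 for all probe sets. In the stromal layer it raised 3 and lowered 8, which is 11.5% beside 3.5%. These calls use a spread estimated over the arrays of both layers. When only the epithelial arrays were fitted, 46 of all probe sets passed as higher and 3 as lower, in place of 415 and 263. The 7 lower calls in epithelium cannot all have been kept in that fit. With only the stromal arrays fitted, 2142 probe sets passed in place of 820. These lists were written with earlier results of the data known, so the shares describe these genes and are no independent evidence of a pathway response.

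Of the 13 other WNT ligands, 0 passed for E2 in either layer by limma, with 1 in epithelium and 2 in stroma at an unadjusted p under 0.05, against 16.2% and 12.5% of all probe sets. Between the layers under vehicle, Wnt2b (1.66 ± 0.24, adjusted p = 0.000645), Wnt9a (0.99 ± 0.19, adjusted p = 0.00338) and Wnt1 (0.26 ± 0.08, adjusted p = 0.0373) were higher in epithelium and Wnt16 was lower (-0.89 ± 0.13, adjusted p = 0.000822). Wnt1 lost its call in each fit that left out 1 vehicle array. Under E2 Wnt2b and Wnt16 passed again, at 1.90 and -1.13. Of the 6 other Frizzled receptors, Fzd3, which acts in axon guidance and planar polarity, fell with E2 in both layers. Its difference was -0.90 ± 0.14 in epithelium (adjusted p = 0.00755, limma) and -0.68 ± 0.14 in stroma (adjusted p = 0.0240, limma), and the stromal call was lost in 5 of 6 fits without 1 array, all but the one without E2 replicate 3. Fzd4, a receptor of vascular development, was higher in epithelium under vehicle by 1.30 ± 0.20 (adjusted p = 0.000981, limma) and under E2 by 1.03 ± 0.20 (adjusted p = 0.00541, limma).

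Of the 6 co-receptors, Ptk7 and Ror1 fell in epithelium, by 0.41 and 0.38 on the log2 scale, and Ptk7 and Ryk fell in stroma, by 0.48 and 0.34. Of these calls, that of Ptk7 in stroma passed in all 6 fits without 1 array. Of the 6 genes for ligand maturation and export, Trabd2b rose in stroma by 1.46 ± 0.29 (adjusted p = 0.0162, limma), a call lost in 5 of 6 fits without 1 array, all but the one without vehicle replicate 2. Gpc3, a cell surface proteoglycan, was higher in epithelium than in stroma by 3.06 ± 0.40 under vehicle (adjusted p = 0.000381, limma).

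Of 14 secreted antagonists, 5 rose in epithelium (Dkk2, Sfrp2, Sfrp4, Frzb and Dkk3) and 0 passed in stroma by limma, where 4 had an unadjusted p under 0.05, against 12.5% of all probe sets. Dkk2, which blocks the co-receptors Lrp5 and Lrp6, rose by 1.94 ± 0.24 (adjusted p = 0.00193, limma), and Sfrp4, a secreted decoy with a Frizzled-like domain, by 1.68 ± 0.26 (adjusted p = 0.00583, limma). Both passed in every fit that left out 1 array, and the other 3 each lost the call in 2 to 4 of the 6 fits. Dkk2 is also a gene of the stromal layer, at 10.97 ± 0.36 (SD, n = 3) there and 7.31 ± 0.32 (SD, n = 3) in epithelium under vehicle. Under vehicle 3 of the 14 antagonists passed as lower in epithelium than in stroma and 0 as higher, against 14.1% and 7.27% of all probe sets. The 3 were Dkk2, Dkk3 and Sfrp4, and Sfrp4 lost that call in 4 of the 6 fits without 1 array. The part of the stromal signal in the epithelial arrays in these rises was not tested. Of 9 genes of the R-spondin group, the receptor Lgr6 rose in both layers, by 2.21 ± 0.49 in epithelium (adjusted p = 0.0356, limma) and 2.63 ± 0.49 in stroma (adjusted p = 0.0119, limma). These calls were lost in 5 and 3 of the 6 fits without 1 array. Rspo4, a secreted enhancer of WNT signals, fell in stroma by 1.07 (adjusted p = 0.00992, limma).

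Of 16 genes inside the beta-catenin route, Bcl9, a coactivator of beta-catenin, rose in both layers (0.90 ± 0.16, adjusted p = 0.0122, and 0.95 ± 0.16, adjusted p = 0.00648), and Tcf7l1 rose in epithelium by 0.65. Of 14 genes of planar polarity and calcium, the cadherins Celsr1 and Celsr2 fell in epithelium, by 0.70 and 1.24 on the log2 scale, both lost in some fits without 1 array. Of 15 measured beta-catenin targets, Ccn4, Lef1, Cd44 and Myc fell in stroma. Ccn4 fell by 2.15 (adjusted p = 7.49e-05, limma), Lef1, itself a factor that works with beta-catenin, by 0.88 (adjusted p = 0.000592, limma) and Cd44 by 0.76 (adjusted p = 0.00407, limma), and these 3 passed in every fit that left out 1 array. Myc fell by 0.52 (adjusted p = 0.0449, limma) and lost its call in every such fit. In epithelium Tnfrsf19 rose by 0.99 ± 0.08 (adjusted p = 0.000138, limma), while Ccn4 fell by 0.97 and the cyclin Ccnd1 by 1.66. Under vehicle Celsr1, Celsr2 and Ccnd1 were higher in epithelium than in stroma. In fits without 1 array these differences were 1.19 to 1.45, 1.65 to 2.40 and 1.24 to 2.08. Of the 14 epithelial markers, 13 were also lower with E2 in epithelium, with a median of -0.71. The part of cell content in the falls of these genes was not tested. The E2 effect differed between the layers for 3 of the 96 genes, Sfrp4 (2.16 ± 0.36, adjusted p = 0.0194), Lef1 (0.90 ± 0.14, adjusted p = 0.0146) and Tnfrsf19 (0.67 ± 0.11, adjusted p = 0.0214), and each of these calls was lost in at least 2 fits without 1 array, among them those without epithelial E2 replicate 2 and stromal E2 replicate 2.

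Many of these calls were lost in fits without 1 array. Without epithelial E2 replicate 1 the epithelial calls of Ptk7, Ror1, Sfrp2, Frzb, Dkk3, Lgr6, Bcl9, Tcf7l1, Celsr1, Celsr2, Ccn4 and Ccnd1 were lost, and without E2 replicate 2 the same calls apart from Sfrp2. Over all probe sets these fits gave 219 and 220 calls, in place of 678, so the loss was not particular to these genes. Without vehicle replicate 1 those of Ror1, Sfrp2, Dkk3, Lgr6, Tcf7l1, Celsr2 and Ccnd1 were lost, where all probe sets gave 411 calls. Without vehicle replicate 2 those of Dkk3 and Tcf7l1 were lost (662 calls). Without vehicle replicate 3 those of Ror1 and Lgr6 were lost (1634 calls), and without E2 replicate 3 that of Lgr6 (1513 calls). The epithelial calls of Fzd3, Dkk2, Sfrp4 and Tnfrsf19 passed in all 6 fits. In stroma Lgr6 lost its call without vehicle replicate 1 or 3 or E2 replicate 2, Rspo4 without vehicle replicate 1 or E2 replicate 2, and Ryk and Myc in every fit. Over all probe sets the stromal fits without 1 array gave 413 to 664 calls, in place of 820.

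**Figure D5:**
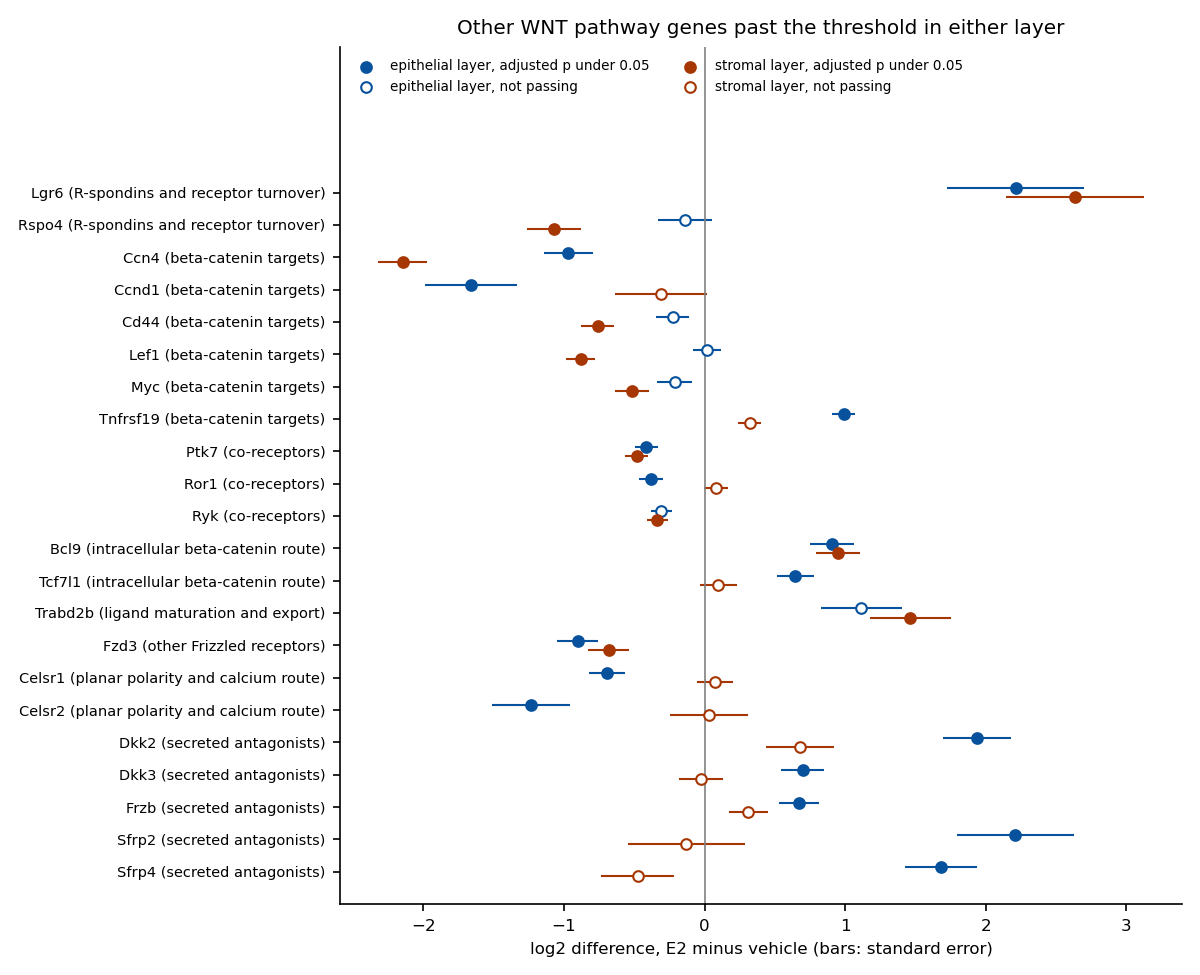
Log2 difference of E2 minus vehicle (horizontal axis, bars are standard errors) in the epithelial (blue) and stromal (orange-brown) layers for the other WNT pathway genes that passed in either layer, with their list in brackets; filled points passed and open points did not. The secreted antagonists lie to the right in epithelium, up to 2.21 for Sfrp2, and Ccn4 lies farthest to the left, at -2.15 in stroma.

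The 10 genes known as uterine partners of WNT signalling came last. Pgr, the progesterone receptor and an E2 target, rose in epithelium by 2.98 ± 0.24 (adjusted p = 0.000138, limma), and 0 of them passed in stroma by limma, where 3 had an unadjusted p under 0.05, against the same 12.5%. Pgr went from 7.59 to 10.57 in epithelium while its stromal means were 10.28 and 11.20. How much of the Pgr rise came with stromal signal in the epithelial arrays was not tested. The E2 effect on Pgr differed between the layers by 2.06 ± 0.34 (adjusted p = 0.0186, limma), a call lost in 4 of 12 fits without 1 array. Under vehicle 6 of the 10 were lower in epithelium than in stroma, where 14.1% of all probe sets were, among them Hoxa10, Hoxa11 and Bmp2, genes of uterine patterning and decidualization, at -1.24, -2.01 and -2.39. Esr1, the estrogen receptor, differed by -0.86 ± 0.14 (adjusted p = 0.00165, limma).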

How the data were processed

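RNA of 12 samples was hybridised to Affymetrix Mouse Gene 1.0 ST arrays, 1 table of 35556 probe sets. The values were log2 signals as deposited by the authors, made with RMA per the submitters' processing notes, whose version and settings are not given in the sources used here. How the arrays were scaled is not given in the sources used here, and the deposited values were not on 1 common distribution: array medians over the whole table lay between 6.92 and 6.95 in stroma and between 7.01 and 7.14 in epithelium. The number of arrays limits the precision. Symbols came from the platform annotation: 23410 probe sets had a symbol, 21789 exactly 1, 1621 several and 12146 none. Of the probe sets with exactly 1 symbol, 21698 had a gene identifier that was in RefSeq (GRCm38.p6).

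Differences were fitted with limma 3.58.1 in R 4.3.3 (lmFit, eBayes, 4 group means, all 12 arrays, 8 residual and 3.27 prior degrees of freedom), two-sided, with Benjamini-Hochberg adjustment over the 23410 probe sets of each comparison and a threshold of 0.05. All members are named, with up to 6 passing genes of each other list and the 3 genes most like each called member. The members and the gene lists were chosen with earlier results of these data known. The list of 16 beta-catenin targets had 15 measured genes, and that of 15 epithelial markers 14. The endothelial markers (7 genes) had array means from 7.55 to 8.01 and the mesothelial markers (6 genes) from 7.01 to 9.78.

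Replicate numbers come from the sample titles. Residuals of same-numbered vehicle arrays of the layers correlated at 0.17, 0.14 and 0.13, and those of same-numbered E2 arrays at -0.31, 0.23 and -0.06. Vehicle and E2 arrays of 1 layer did not reach 0.1 in every pair either. Whether a shared number marks 1 co-culture is not in the labels and was not tested. The alternatives tried were 3 other scalings, a minimum mean signal, every probe set of the table, other variance models, array weights, thresholds and blocks, and leaving out arrays. Data were simulated with 23410 probe sets, 50 of them changed at each fold of 1.5, 2, 4 and 8. The fit found 36%, 96%, 96% and 100% of these for the epithelial comparison and 46%, 74%, 98% and 100% for the stromal one. Each probe set was given the same SD in all 4 groups, from its mean variance over them. The wider spread of the epithelial arrays and the narrower spread of the stromal arrays were thus left out. The shares of neither layer tell how often such changes are found in these arrays.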

Additional observations from a re-analysis of the deposited data

Results flagged for a closer look

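For Wnt7a every E2 array lay below every vehicle array in epithelium and above every vehicle array in stroma. Neither difference passed by limma, -1.68 ± 0.46 in epithelium (adjusted p = 0.0782) and 0.18 ± 0.46 in stroma (adjusted p = 0.958), and the stromal values lay near the low end of the scale and were not tested against background. The difference between the layers was -1.86 ± 0.65. Limma's test of it did not pass (adjusted p = 0.281), and without epithelial vehicle replicate 3 it did, at -2.50 (adjusted p = 0.00803). Beside it, the epithelial marker mean went from 10.52, 11.06 and 9.51 to 9.41, 9.62 and 9.71 in the epithelial arrays, and from 6.66 to 6.91 up to 7.03 to 7.15 in the stromal arrays. The part of cell content in the difference was not tested.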

How the results depend on the processing

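Of 732 differences of the members under alternatives that kept all arrays, 673 kept their direction and their side of the threshold, 14 lost the call, 37 gained it and 8 changed direction; with 1 array left out these were 345, 17, 14 and 20 of 396. Every direction that changed belonged to a difference that had not passed. The cause of these changes was not tested. In place of 0, 2 and 0 called members, array weights gave 8 for E2 in epithelium, 6 in stroma and 4 for the difference. Over all 23410 probe sets the weights gave 4706, 4503 and 4488 calls, in place of 678, 820 and 213. An adjusted p under 0.01 left 1 member for E2 in stroma and 2 between the layers under E2. One under 0.1 gave 4 members for E2 in epithelium and 1 for the difference. Leaving out single arrays gave 0 to 5 called members for E2 in epithelium, 1 to 2 in stroma and 0 to 4 for the difference. Between the layers it gave 6 to 8 under vehicle and 3 to 6 under E2. Over all probe sets the same fits gave 219 to 1634, 413 to 664, 81 to 725, 3385 to 7197 and 1953 to 2929 calls.

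Fzd7 turned to 0.054 for E2 in epithelium with epithelial E2 replicates 1 and 2 averaged, to 0.12 with quantile normalization and 0.16 with cyclic loess between layers under vehicle, and to -0.0426 with array weights between layers under E2. Without 1 array it ran from -0.22 to 0.13, from -0.18 to 0.18 and from -0.0386 to 0.27 in these comparisons and from -0.0437 to 0.31 for the difference of the E2 effect. That difference turned to 0.21 for Wnt5a with array weights and to 0.0027 for Wnt11 with the averaged replicates, and ran from -0.27 to 0.0548 and from -0.21 to 0.12 without 1 array. Fzd1 turned to 0.0126 between layers under vehicle with cyclic loess. Wnt4 turned to -0.27 between layers under E2 with the mean of its probe sets and ran from -0.0282 to 0.13 without 1 array, and its second probe set ran from -0.18 to 0.0344 for E2 in epithelium and from -0.0673 to 0.18 between layers under vehicle.

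With the replicate number as a block, Fzd2 passed between the layers under vehicle (-0.42, adjusted p = 0.0378), the counts being 0, 2, 0, 7 and 6, and no other call of a member changed. Over all probe sets the alternatives gave from 49 to 4706 calls for E2 in epithelium (678 in the fit reported), 361 to 4503 in stroma (820), 46 to 4488 for the difference (213), 2709 to 9867 under vehicle (5001) and 1652 to 11798 under E2 (3184). Cyclic loess gave 2175 higher and 2633 lower between layers under vehicle in place of 1703 and 3298, and 1464 and 1842 under E2 in place of 1036 and 2148.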
